A study of Bos taurus with 4 samples.

Results

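The 34 genes described here make cholesterol, sense it, release it from lysosomes, store it or export it. Their probes were taken by gene symbol, as all probes of the platform annotation that carry one of the 34 symbols. SC4MOL was read as MSMO1 and SC5DL as SC5D. The list was chosen with earlier results of these data known. The annotation named 61 probes for them, and 16 of the genes had several. Where a gene had several probes, the brightest stands for it below. Of the 34 genes, 30 were bright enough and measured on every array, among 11963 such genes in all. IDI1 and NPC1 were measured on 3 arrays, because their spots on array 4 were marked as ignored by the scanner software. STARD4 and ABCA1 were too dim to be tested.

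The study compared bovine blastocysts sired with semen collected at 16 months of age with blastocysts sired with semen collected at 12 months. Semen of both ages came from 4 bulls, and both groups were matured, fertilised and cultured in vitro with oocytes from slaughterhouse ovaries. Each of 4 arrays carried 16-month and 12-month RNA side by side in different dyes, with the 16-month RNA in Cy3 on arrays 1 and 2 and in Cy5 on arrays 3 and 4. The labels call the arrays biological replicates, give no link between bulls and arrays and do not give the number of embryos behind each RNA, so the p-values measure the spread between arrays.

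Cholesterol is built from acetyl-CoA by way of mevalonate, isoprenoids and squalene, and most enzymes of the route are switched on together by the transcription factor SREBP2 when membrane sterol is low. SCAP carries the SREBP proteins to the Golgi, where they are cut and released, and the INSIG proteins hold SCAP back in the endoplasmic reticulum when sterol is plentiful. Sterol excess acts through the LXR receptors, which switch on the exporters ABCA1 and ABCG1. Dividing cells of the early embryo need cholesterol for new membranes.

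Markers of the blastocyst lineages were above background, which by itself does not identify the stage. All 11 trophectoderm markers, all 5 inner cell mass markers and the 4 primitive endoderm markers with a named probe were above background in 8 of 8 channel signals, where a channel signal is one dye on one array. Of 10 cumulus and granulosa cell markers, 7 reached it in at most 3 of 8 signals, with AMH, FOXL2 and HAS2 in 0, while CYP19A1 and INHBA reached it in 8. Of the 5 blood cell markers PTPRC, HBB and HBA were above background in 8 signals, and of the 5 sperm markers PRM1 and TNP2 were. Across arrays, 69.5% to 72.3% of probes in Cy5 and 62.7% to 66.6% in Cy3 were above background. Of 43794 probes, 19928 were above background in 8 of 8 signals.

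No gene of the group differed between the ages in limma after adjustment over all probes. All 32 members tested had an adjusted p of at least 0.821, and 0 of 30986 probes in all passed 0.05 (0% called). A value below is the log2 ratio of 12 over 16 months, so a negative value means a higher level in 16-month embryos. At an unadjusted p under 0.05 stood 1 of 30 members, HSD17B7, on the side that is higher in 12-month embryos, where 2.98% of all genes stood, and 0 members were on the other side, where 3.32% stood. In either direction 6.29% of all genes reached that p, so the members' count lay near the background. None of the 30 members kept one sign on all 4 arrays, against 10.6% of all genes. None had levels that did not overlap between 16-month and 12-month RNA, against 0.92% of all genes. The median of the 30 mean ratios was 0.038, against 0.00043 for all genes, with 18 members above 0 and 12 below. Among all 11963 genes, 5993 were above 0 and 5970 below.

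What the enzymes of synthesis showed was a shift within single arrays that did not keep its direction over the arrays. The 18 enzymes measured on all arrays had median log2 ratios of 0.071, 0.43, -0.50 and 0.20 on arrays 1 to 4. On array 2 they were mostly higher in 12-month RNA and on array 3 mostly higher in 16-month RNA. Above 0 stood 10, 16, 3 and 15 of the 18 on arrays 1 to 4, where 48.6%, 53.6%, 45.9% and 50% of all genes stood. A ratio above 0.5, or 1.41-fold, was reached by 8 of 18 on array 2, against 5.99% of all genes, and a ratio below -0.5 by 9 of 18 on array 3, against 5.07% of all genes. The 0.5 limit was chosen after the values were seen. The enzymes' probes had a median log2 brightness of 10.7, against 8.57 for all genes, and the shares were not matched for brightness.

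The same limit was passed by few members in the opposite direction or on the other arrays. On array 1, 2 of 30 members, MVK and DHCR7, were above 0.5, against 6.74% of all genes, and 1 of 30, SOAT1, was below -0.5, against 3.68%. On array 2, 0 of 30 were below -0.5, against 3.08%. On array 3, 1 of 30, SREBF2, was above 0.5, against 4.26%. On array 4, 0 of 30 were above 0.5, against 2.22%, and 0 of 30 were below -0.5, against 2.57%.

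**Figure D1:**
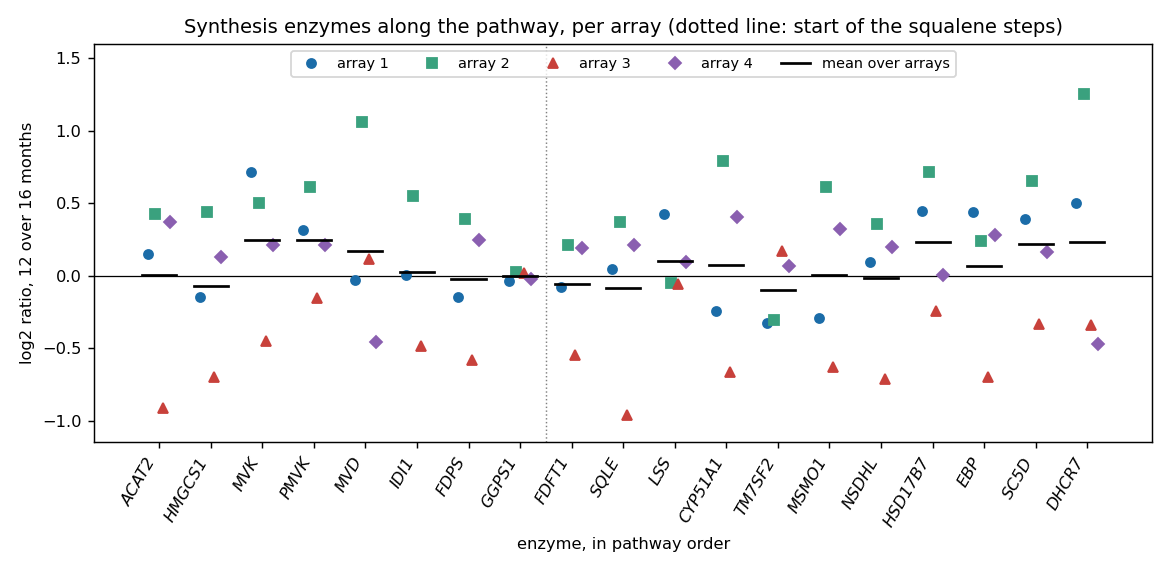
Log2 ratio of 12 over 16 months for the 19 synthesis enzymes tested, in pathway order, with a symbol for each array and a black bar for the mean. Array 3 lies below 0 for most enzymes and array 2 above 0, while GGPS1 stays near 0 on every array and TM7SF2 runs the other way.

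The first steps make mevalonate and turn it into isoprenoid units. ACAT2, the cytosolic thiolase that joins acetyl-CoA units, stood at 0.15, 0.43, -0.91 and 0.37 on arrays 1 to 4. It was thus higher in 16-month RNA on array 3 alone, and by more than any of the other arrays moved the opposite way. A second, dim ACAT2 probe did not share this, at 0.28, 0.26, -0.049 and -0.13. HMGCS1, which makes HMG-CoA, stood at -0.15, 0.44, -0.70 and 0.13. Its second probe followed with 0.24, 0.40, -0.25 and 0.19, and its dimmest probe stayed between -0.15 and 0.11. Mean ratios were 0.0078 ± 0.62 for ACAT2 and -0.069 ± 0.48 for HMGCS1 (SD, n = 4), so the spread between arrays was many times the mean.

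MVK and PMVK, the kinases that phosphorylate mevalonate in turn, had the highest means of the mevalonate steps by their brightest probes. Averaged over all tested probes of a gene the means were 0.054 for MVK and 0.075 for PMVK, below the 0.17 of MVD. PMVK had log2 brightness values of 8.51, 8.33, 8.34 and 8.73 in 16-month RNA, against 8.83, 8.94, 8.19 and 8.94 in 12-month RNA. The 12-month value was the higher of the pair on arrays 1, 2 and 4 and the lower on array 3, and the ranges overlapped. The ratio of PMVK averaged 0.25 ± 0.32 with a 95% confidence interval from -0.0050 to 0.50 (n = 4, limma unadjusted p = 0.0534, adjusted p = 0.821). A second, dimmer PMVK probe stood at -0.052, -0.19, 0.035 and -0.18, on the other side on arrays 1, 2 and 4. MVK stood at 0.72, 0.50, -0.45 and 0.21 on arrays 1 to 4. Its 2 other probes, both dim, had means of -0.021 and -0.061.

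MVD, which removes carbon dioxide to give isopentenyl diphosphate, went its own way at -0.029, 1.06, 0.11 and -0.46. IDI1, the isomerase of that product, stood at 0.0017, 0.55 and -0.48 on arrays 1 to 3. Its fit used 3 arrays (limma adjusted p = 0.901). FDPS, which makes farnesyl diphosphate, stood at -0.15, 0.39, -0.58 and 0.24. All 4 FDPS probes were below 0 on array 3, between -0.81 and -0.13, while the dimmest was also below 0 on arrays 1 and 2, at -0.31 and -0.30. GGPS1, which diverts farnesyl diphosphate to protein prenylation and not to sterols, differed least between arrays, with ratios from -0.038 to 0.024 and a mean of -0.0048 ± 0.030 (n = 4).

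Of the 11 steps from squalene synthesis to cholesterol, 9 were above 0 on array 2 and 1 was above 0 on array 3. FDFT1, which makes squalene and commits the route to sterols, stood at -0.081, 0.21, -0.55 and 0.19. Its dimmer second probe disagreed on arrays 2 and 3, at 0.031, -0.43, 0.098 and 0.023. SQLE, the squalene epoxidase and a rate-limiting step, stood at 0.048, 0.37, -0.96 and 0.21, the lowest value of any member on any array. In 16-month RNA its log2 brightness was 11.39, 10.96, 11.46 and 11.75, against 11.44, 11.33, 10.49 and 11.97 in 12-month RNA. Array 3 therefore held the single low SQLE value in the 12-month RNA, while the 16-month RNA of that array lay among the others.

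CYP51A1, the lanosterol demethylase, stood at -0.24, 0.79, -0.67 and 0.41. Its 2 further probes were also above 0 on array 2, at 0.72 and 0.45, and below 0 on array 3, at -0.24 and -0.83. MSMO1, the methylsterol oxidase, stood at -0.29, 0.61, -0.63 and 0.32, but its dimmest probe stayed above 0 on all arrays, from 0.055 to 0.19. NSDHL, the dehydrogenase that acts with it, stood at 0.093, 0.36, -0.71 and 0.20, and its dim second probe at 0.34, 0.0095, -0.064 and 0.25. EBP, the sterol isomerase, stood at 0.44, 0.24, -0.70 and 0.28.

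LSS and TM7SF2 were not clearly below 0 on array 3. LSS, which closes squalene epoxide into lanosterol, stood at 0.43, -0.051, -0.057 and 0.097 from a dim probe that was above background in 7 of 8 signals. TM7SF2, a sterol reductase, stood at -0.33, -0.30, 0.17 and 0.067, with its sign turned against most of the other enzymes on arrays 2 and 3. Its dimmer second probe stayed between -0.10 and 0.10.

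HSD17B7, the ketosteroid reductase of the route, was the member with the smallest unadjusted p. Its log2 brightness was 9.02, 8.67, 9.11 and 9.85 in 16-month RNA, against 9.47, 9.38, 8.86 and 9.86 in 12-month RNA. The ranges overlapped, with array 3 reversed and array 4 nearly equal. The ratio averaged 0.23 ± 0.43 with a 95% confidence interval from 0.00075 to 0.46 (n = 4, limma unadjusted p = 0.0495, adjusted p = 0.821). Of 15 alternatives to the processing or the arrays used, 10 gave HSD17B7 an unadjusted p above 0.05, from 0.061 to 0.53.

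DHCR7, the last reductase before cholesterol, had the widest spread of the enzymes. It read 10.85, 9.79, 9.09 and 11.18 in log2 brightness in 16-month RNA, against 11.35, 11.05, 8.75 and 10.71 in 12-month RNA. Its ratio was above 0 on arrays 1 and 2, which carried 12-month RNA in Cy5, and below 0 on arrays 3 and 4, which carried it in Cy3. The fitted dye difference was 0.64 (log2, Cy5 over Cy3), larger than the mean age ratio of 0.24 ± 0.81 (n = 4, limma adjusted p = 0.823). SC5D, the desaturase that acts just before it, stood at 0.39, 0.66, -0.33 and 0.16.

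**Figure D2:**
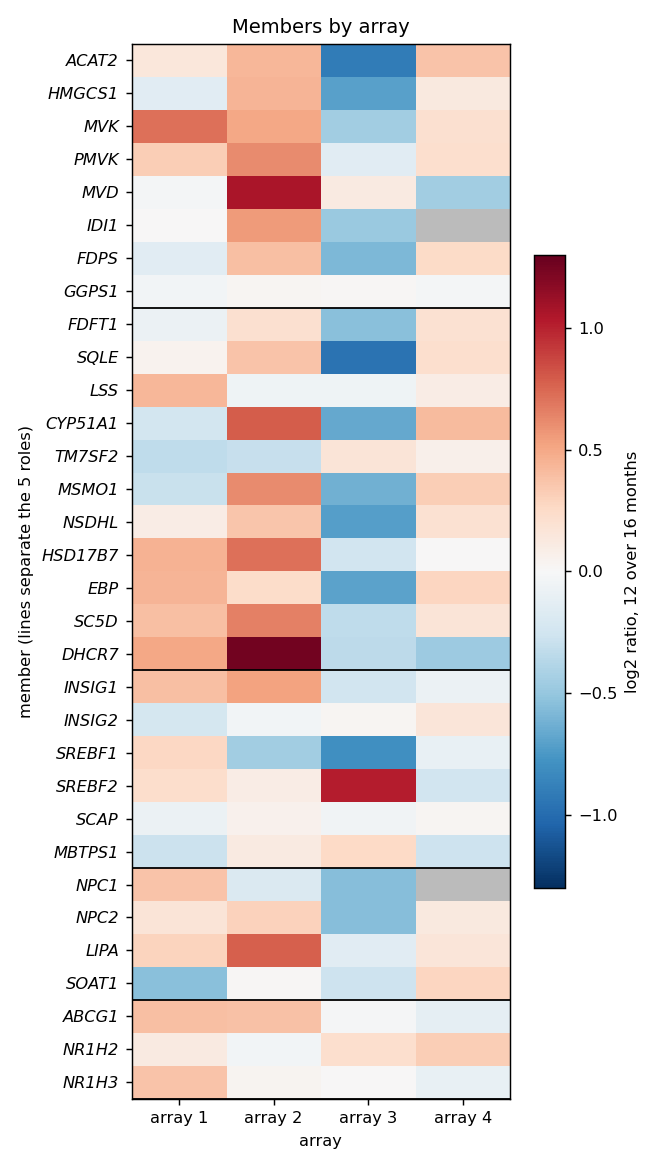
Log2 ratio of 12 over 16 months for the 32 members tested (rows, separated by role) on each array (columns), red above 0, blue below 0 and grey where the spot was ignored. Synthesis enzymes are mostly red on array 2 and blue on array 3, and SREBF2 on array 3 is the largest value in the opposite direction.

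Sensors and regulators did not move as one group. The medians of these 6 genes were 0.079, 0.076, -0.014 and -0.085 on arrays 1 to 4. SREBF2, which encodes SREBP2, read 13.74, 14.43, 13.27 and 14.37 in log2 brightness in 16-month RNA, against 13.97, 14.52, 14.29 and 14.12 in 12-month RNA. The low value was the 16-month RNA of array 3, the array on which the enzymes were higher in 16-month RNA. Its ratio was 1.02 there and between -0.25 and 0.23 on the other arrays, with a mean of 0.27 ± 0.54 (n = 4, limma adjusted p = 0.833). A second bright SREBF2 probe did not show this, at -0.28, -0.085, -0.040 and -0.036, so the probes of this gene disagreed.

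SREBF1, which encodes the SREBP1 proteins of fatty acid synthesis, read 10.92, 10.83, 10.72 and 10.93 in log2 brightness in 16-month RNA, against 11.19, 10.37, 9.92 and 10.84 in 12-month RNA. The 16-month values were close together, and the 12-month value was the lower of the pair on arrays 2, 3 and 4. The mean ratio was -0.27 ± 0.46 with a 95% confidence interval from -0.67 to 0.13 (n = 4, limma adjusted p = 0.824). SREBF1 was the member with the lowest mean and shared its low value on array 3 with the enzymes.

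INSIG1, an inhibitor that is itself a target of the SREBPs, read 9.25, 8.81, 8.90 and 9.62 in 16-month RNA, against 9.65, 9.33, 8.66 and 9.55 in 12-month RNA. All 3 INSIG1 probes were above 0 on arrays 1 and 2 and below 0 on array 3, as were HSD17B7 and SC5D. The related INSIG2 read 9.69, 9.62, 9.34 and 9.66 in 16-month RNA, against 9.46, 9.58, 9.36 and 9.81 in 12-month RNA. Its ratios stayed between -0.23 and 0.16, and those of a dimmer probe between -0.18 and 0.17. SCAP, the escort of the SREBPs, stayed between -0.072 and 0.060, and MBTPS1, the first protease that cuts them, between -0.28 and 0.26. A second, dim MBTPS1 probe disagreed, at 1.02, 0.16, 0.029 and -0.11, and the mean over both probes was 0.12. Mean ratios were 0.15 ± 0.37 for INSIG1, -0.021 ± 0.16 for INSIG2, -0.0087 ± 0.062 for SCAP and -0.043 ± 0.27 for MBTPS1 (SD, n = 4).

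**Figure D3:**
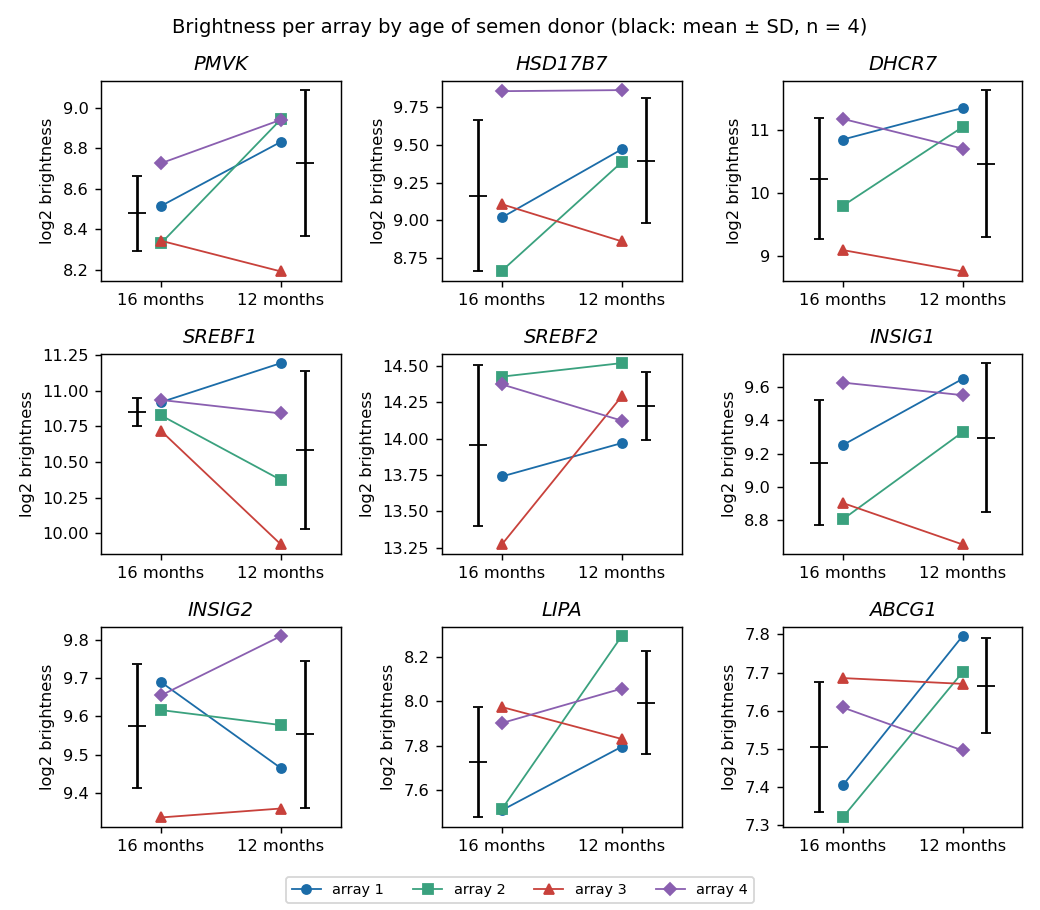
Log2 brightness of 9 members in 16-month RNA (left) and 12-month RNA (right), with a line joining the pair on each array and black marks for mean ± SD over 4 arrays. In every panel the ranges of the ages overlap and the lines do not all run one way.

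Genes of lysosomal release, transport and storage were uneven. LIPA, the acid lipase that frees cholesterol from esters taken up with lipoproteins, read 7.51, 7.51, 7.97 and 7.90 in log2 brightness in 16-month RNA, against 7.80, 8.29, 7.83 and 8.06 in 12-month RNA. The 12-month value was the higher on arrays 1, 2 and 4. Its ratio averaged 0.27 ± 0.39 with a 95% confidence interval from -0.0095 to 0.55 (n = 4, limma adjusted p = 0.821). NPC2, which binds cholesterol inside the lysosome, stood at 0.17, 0.30, -0.56 and 0.13, lowest on array 3. NPC1, the membrane protein that takes it over, stood at 0.37, -0.18 and -0.55 on arrays 1 to 3 (fit on 3 arrays, limma unadjusted p = 0.182). SOAT1, which stores cholesterol as esters, stood at -0.54, 0.020, -0.27 and 0.28, with a mean of -0.13 ± 0.36 (n = 4).

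STARD4, a carrier of cholesterol between membranes, had 3 probes, which were above background in at most 2 of 8 signals. ABCA1, an exporter, had 1 probe, above background in 1 of 4 signals of the 16-month RNA and 2 of 4 of the 12-month RNA. The other exporter, ABCG1, was dim but testable. It read 7.40, 7.32, 7.69 and 7.61 in log2 brightness in 16-month RNA, against 7.80, 7.70, 7.67 and 7.50 in 12-month RNA. Its ratios of 0.39, 0.38, -0.015 and -0.11 divided by dye orientation, with a mean of 0.16 ± 0.26 (n = 4, limma adjusted p = 0.821). NR1H2 and NR1H3 encode the LXR receptors. NR1H2 stood at 0.12, -0.033, 0.21 and 0.32, without the low value on array 3, and averaged 0.15 ± 0.15 (n = 4). NR1H3 stood at 0.37, 0.039, 0.0071 and -0.097.

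The members varied more between arrays than genes at large. Their median SD over arrays was 0.40, against 0.22 for all genes, and that of the synthesis enzymes was 0.48. These SDs were not matched for brightness. The distance from the mean to either end of the 95% confidence interval had a median of 0.31 for the members and 0.36 for the enzymes (log2), so a smaller mean difference could not be told from 0 for most of them. Read by dye, the median of the enzymes was 0.071, 0.43, 0.50 and -0.20 (log2, Cy5 over Cy3) on arrays 1 to 4, and their median fitted dye difference was 0.23, against 0.015 for all genes. The dye and the embryos of one array cannot be told apart within that array.

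The representing probes had a median log2 brightness of 10.2, against 8.57 for all genes, and after loess a trend with brightness remained in bright probes. On array 3 all tested probes of log2 brightness 10 to 11 had a median ratio of -0.13, those of 13 to 14 a median of 0.12 and those above 14 a median of -0.26. With a loess window of 0.05 in place of 0.3, an alternative chosen after the data were seen, those medians were 0.010, 0.080 and 0.031. The medians of the enzymes with the narrow window were 0.15, 0.45, -0.44 and 0.18 on arrays 1 to 4, and in the authors' deposited table they were 0.090, 0.44, -0.64 and 0.18. On array 3 the median of the mevalonate steps went from -0.45 with the default window to -0.30 with the narrow window. That of the steps from squalene synthesis on went from -0.55 to -0.57. The narrow window reduced the trend without removing it, and the part of the trend in the shift was not tested. The narrow window moved the ratio of SREBF2 on array 3 to 0.99 and turned the means of GGPS1, NSDHL, INSIG2 and SCAP, all near 0, to the other side.

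**Figure D4:**
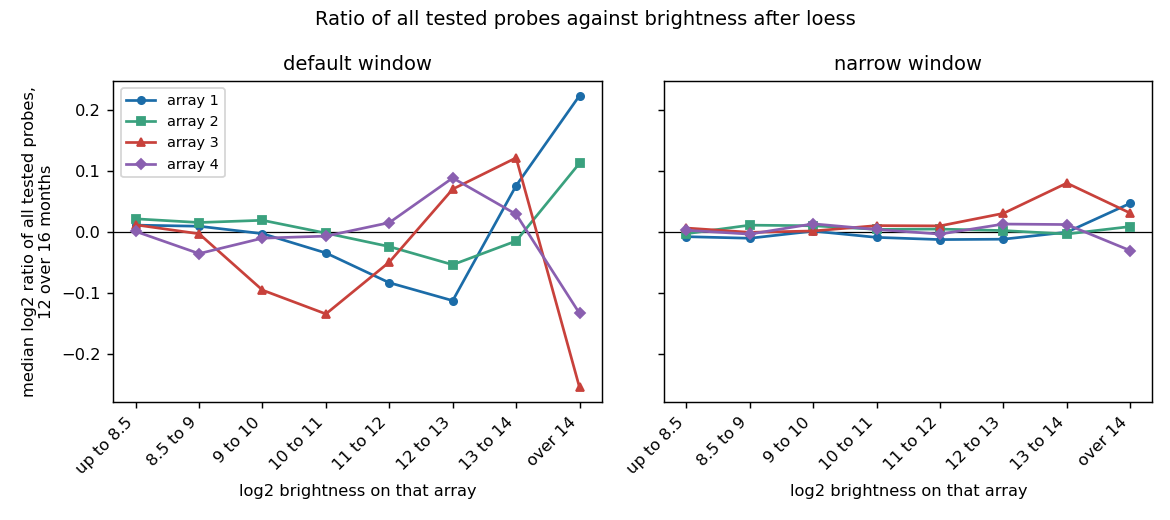
Median log2 ratio of 12 over 16 months of all tested probes in bins of log2 brightness, for each array, with the default loess window (left) and the narrow window (right). With the default window the medians of bright bins reach -0.26 and 0.22, and with the narrow window they lie between -0.031 and 0.080.

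**Figure D5:**
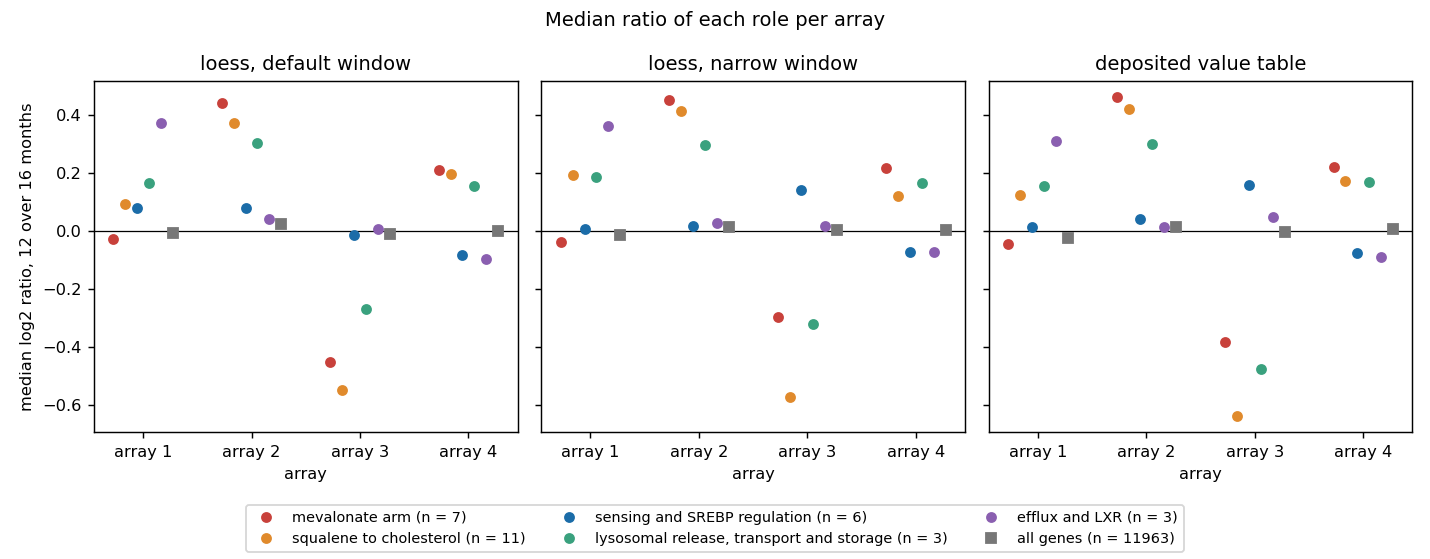
Median log2 ratio of 12 over 16 months of each role and of all 11963 genes on each array, with the default loess window, the narrow window and the authors' deposited table. In all 3 panels both groups of synthesis enzymes lie above 0 on arrays 2 and 4 and below 0 on array 3.

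Markers of trophectoderm also varied between arrays. Their median ratios were 0.12, 0.48, -0.23 and -0.033 on arrays 1 to 4 (11 markers), with interferon tau (IFNT) at 1.00, 1.42, -0.88 and 0.14 and PAG2, a pregnancy-associated glycoprotein, at 0.75, 0.85, -0.55 and 0.36. KRT8, a keratin, stood at 1.40, 0.96, -1.27 and -1.31, apart by dye orientation. The remaining trophectoderm markers were uneven. PAG12 stood at 0.90, 0.94, -0.14 and 0.54, and TFAP2C at -0.46, 0.48, -0.36 and 0.33. TFAP2A stood at -0.010, 0.66, -0.17 and -0.32, and GATA2 at 0.067, 0.48, -0.23 and -0.16. CDX2, GATA3 and TEAD4 stayed between -0.20 and 0.18 on every array, and KRT18 stood at 0.050, -0.027, -0.48 and -0.28. The 5 inner cell mass markers had medians of 0.18, 0.25, -0.095 and 0.079. The part of the embryos' cell makeup in the shift of the enzymes was not tested, and in RNA of whole blastocysts fewer cells of a type and less RNA per cell cannot be told apart.

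Other genes of the pathway were taken from a list of 36 symbols, of which 26 had a named probe and 19 were tested. Of the 19, 11 were higher in 12-month embryos on average and 8 lower, with means from -0.17 to 0.14, and 0 reached an unadjusted p under 0.05 in limma (6.29% of all genes did). Their medians by array were -0.072, 0.0089, -0.061 and 0.13, without the shifts of the synthesis enzymes on arrays 2 and 3. Some of them were nonetheless above 0 on arrays 2 and 4 and below 0 on array 3. ACLY, which supplies acetyl-CoA to both sterol and fatty acid synthesis, stood at -0.11, 0.48, -0.80 and 0.13. LBR, a sterol reductase, stood at -0.040, 0.30, -0.24 and 0.38, and OSBP, a sterol carrier, at -0.15, 0.30, -0.21 and 0.40. These were singled out after their values were seen.

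Single arrays decided several counts. Without array 3 the 30 members had a median fitted ratio of 0.18, against 0.0034 for all genes, and 25 of 30 were above 0. An unadjusted p under 0.05 in limma was then reached by 7 of 30 members, ACAT2, MVK, PMVK, HSD17B7, EBP, SC5D and LIPA, and by 5.76% of all genes, against HSD17B7 alone with all arrays. Without array 2 the median was -0.033, with 13 members above 0, and 0 members but 6.29% of all genes were at that p. Without array 1 the members at that p were 3, HSD17B7, DHCR7 and LIPA, against 6.81% of all genes, the median was 0.078 and 25 of 30 were above 0. Without array 4 they were 4, ACAT2, SQLE, SREBF1 and SREBF2, against 11.4% of all genes, and the median was -0.012. All genes had median fitted ratios of 0.0043, -0.0086 and -0.0079 in the fits without arrays 1, 2 and 4. Such fits rest on 3 arrays, and the lone array of a dye orientation was assumed to vary like the others.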

How the data were processed

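The 4 arrays, each with blastocyst RNA in both dyes, all lay on 1 slide. Per the labels' protocols the RNA was amplified and then labelled chemically. Spot and local background intensity in the deposited scanner output was read at 532 nm (Cy3) and 635 nm (Cy5) and is not background-corrected, per the file headers. The authors' deposited value table holds log2 ratios. Per the submitters' processing notes limma was used. The columns of that table correlated with the log2 ratios (Cy5 over Cy3) computed here at 0.989, 0.988, 0.855 and 0.986 on arrays 1 to 4. The lowest was array 3. With the ratios of another array they correlated at 0.324 at most. Column medians lay from -0.016 to -0.0019, so the scale and direction of the table are known and its background step is not.

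From median pixel intensities, background was corrected with normexp (offset 50) and ratios were normalised by loess (window 0.3) in each array with control spots at weight 0. Ignored spots, which numbered 13, 10, 64 and 818 on arrays 1 to 4, were left out. A probe was tested where its background-subtracted signal passed the 95th percentile of the 153 negative controls in at least 4 of 8 channel signals. This level is the background of the text. The 30986 probes were fitted with limma 3.58.1 in R 4.3.3, with coefficients for age and dye, two-sided, adjusted by Benjamini-Hochberg over all probes. Levels are log2 brightness after quantile scaling of array brightness. They depend on the probe and were not compared between genes. The number of arrays limits the precision, with a median half-width of the 95% interval of 0.23. The fit was also run on simulated ratios with noise drawn independently for each probe and array. Shifts shared by many probes on an array were not simulated, so that run does not bear on them.

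Symbols came from the platform annotation, updated through RefSeq synonyms (ARS-UCD2.0). All members are named. Values on each array follow a rule (one sign on all arrays, unadjusted p under 0.05, largest mean of a role, SREBF1, SREBF2, INSIG1, INSIG2) and were added for further members after the values were seen. Members and lists were chosen with earlier results of these data known. Alternatives changed the normalisation, background, pixel summary, scaling, filter, dye term, source table, probe choice, loess window and arrays used.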

Additional observations from a re-analysis of the deposited data

How the results depend on the processing

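With all 4 arrays, 0 probes passed the adjusted threshold under every alternative to the processing that was run; leaving out 1 array gave 0 to 27 (24 without array 3, 27 without array 4). The median ratio of the members was -0.38 after median centring, against -0.21 for all genes, or -0.17 relative to them. It lay between 0.0020 and 0.057 under the other alternatives with all arrays and from -0.033 to 0.18 when 1 array was left out. The count of members at an unadjusted p under 0.05, 1 as reported, was 11 of 30 after median centring, where 37.3% of all genes reached that p. It was 3 with mean pixel intensity, with no filter on dim probes and with the narrow loess window (5.95%, 7.87% and 6.21% of all genes), and 0 with no background subtraction, with probes above background in 8 of 8 signals, with no dye coefficient and with the deposited table (4.77%, 5.12%, 3.93% and 4.22%). It stayed 1 with offset 16 and with scaling between arrays (5.94% and 3.74% of all genes), but of LIPA and of NR1H2, not of HSD17B7. It was also 1, HSD17B7, with the mean over all tested probes of a gene (5.61% of all genes). It ranged from 0 to 7 when 1 array was left out. The causes were not tested. Of 448 member values under alternatives, 434 moved by less than the SD over arrays, and 14 moved by more. Much of this count was fixed in advance. The changes of filter and dye term leave a member's fitted ratio as it was. Leaving out 1 array always moves it by less than that SD in this balanced design. The count is therefore no measure of how stable the values are. Between 0 and 14 of the members changed sign in any alternative, most after median centring. Every ratio already pairs the ages within an array, and no further pairing of arrays is labelled. Dim probes such as ABCA1 and STARD4 are limited by background.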
